A study of Mus musculus with 16 samples.

Results

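The 9 genes of the p53 response and of mitochondrial apoptosis examined here in cortical bone of mice were Trp53, Cdkn1a, Mdm2, Ccng1, Bax, Bbc3, Pmaip1, Bcl2 and Bcl2l1. They were chosen by symbol, and 8 of the 9 are listed among the 36829 features of the deposited tables. Ccng1 was not analysed here. Bbc3 had a mean under 0.5 RPKM (reads per kilobase of gene length, scaled to the size of the library) and is given by its values, and the other 7 are among the 16973 features that were tested. The mice were female C57Bl/6 mice of 11 weeks, 8 with normal weightbearing (control) and 8 after 7 days of hindlimb unloading (HLU), in which a tail harness keeps the hind limbs off the floor. The labels name no allele and no drug in either group. The RNA is total RNA of the femoral shaft after its ends were cut off and its marrow flushed out, 1 library per mouse. The questions here were whether any of these genes differed between HLU and control mice, and which of them rose and fell together from mouse to mouse.

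The protein p53, encoded by Trp53, is a transcription factor that accumulates after DNA damage and other stress. It switches on Cdkn1a, whose product p21 stops the cell cycle, and Mdm2, whose product marks p53 for destruction and so closes a feedback loop. It also switches on the cell death genes Bax, Bbc3 (Puma) and Pmaip1 (Noxa). Bax opens the outer membrane of mitochondria, which releases cytochrome c and starts the caspase cascade, Puma and Noxa are BH3-only proteins that unleash it, and Bcl2 and the long product of Bcl2l1 (Bcl-xL) hold it in check. In bone, osteocyte apoptosis has been studied as an early event of disuse, and in marrow Bcl-xL is known for keeping maturing red cell precursors alive.

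The binding element of p53 is a pair of half-sites, and promoters are shown here to make plain which of the genes carry an exact match to the half-site consensus close to a start. In the 250 bases before the RefSeq starts of 7 listed members, on 12 windows in all, 4 genes had a match, against 7.13% of 32841 such windows of the genome. The consensus reads the same on both strands. The stretches below run 5′ to 3′ toward the start, without bases that GENCODE M21 places in an exon, and capitals mark the match.
Cdkn1a (GRCm38.p6, chr17:29090729-29090975, plus strand): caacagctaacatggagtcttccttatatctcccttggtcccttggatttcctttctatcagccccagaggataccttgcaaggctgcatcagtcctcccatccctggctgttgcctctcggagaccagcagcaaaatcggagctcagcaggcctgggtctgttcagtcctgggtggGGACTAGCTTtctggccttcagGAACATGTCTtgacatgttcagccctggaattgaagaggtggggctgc
Mdm2 (GRCm38.p6, chr10:117710759-117711008, minus strand): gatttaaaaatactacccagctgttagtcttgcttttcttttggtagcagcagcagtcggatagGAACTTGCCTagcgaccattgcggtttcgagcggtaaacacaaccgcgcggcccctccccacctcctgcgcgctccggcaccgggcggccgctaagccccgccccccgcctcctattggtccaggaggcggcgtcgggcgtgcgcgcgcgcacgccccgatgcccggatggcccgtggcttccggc
Bax (GRCm38.p6, chr7:45466899-45467148, minus strand): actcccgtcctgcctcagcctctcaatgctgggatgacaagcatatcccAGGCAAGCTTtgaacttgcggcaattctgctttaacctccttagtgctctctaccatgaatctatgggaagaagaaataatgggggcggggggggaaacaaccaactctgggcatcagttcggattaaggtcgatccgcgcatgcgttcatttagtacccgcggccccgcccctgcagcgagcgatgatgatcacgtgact
Trp53 (GRCm38.p6, chr11:69580256-69580358, plus strand): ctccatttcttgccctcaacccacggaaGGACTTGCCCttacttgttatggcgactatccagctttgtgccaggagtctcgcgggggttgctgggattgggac
The Cdkn1a stretch lies before the distal of its 2 starts and holds 2 matches, which begin 73 and 51 bases before that start. The match begins 186 bases before the start of Mdm2, 201 before that of Bax and 75 before that of Trp53. The windows of Bbc3, Bcl2 and Bcl2l1 held no exact match, which says only that these letters are not in these windows. The erythroid GATA motif (GATAA or GATAG after an A or a T, either strand) was found in 1 window of Cdkn1a and 1 of Bcl2l1, and in 26.5% of all windows.

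The libraries held 7067512 to 21363584 reads, as recovered from the steps of the deposited RPKM values, and 3 reads on a gene of 1 kb came to between 0.140 and 0.424 RPKM. Of the reads of a library, 6.75% to 23.7% fell outside the listed features. All 6 osteocyte markers were listed, with a summed level of 179 to 589 RPKM in control and 263 to 598 RPKM in HLU mice. Markers of blood cells were high as well, with summed granulocyte markers from 12431 to 44663 RPKM, while muscle markers were not analysed here. Libraries also differed along a GC axis. A GC score was defined as the mean log2 level of features in the top 20% of transcript GC content (above 54.8%) minus that of the bottom 20% (below 43.6%), members left out. It was 0.00 ± 0.63 in control and 0.00 ± 0.53 in HLU mice (mean ± SD, n = 8 each, two-sided exact permutation p = 0.988), and 3 libraries stood apart at its low end: HLU 4 (-1.07), Control 4 (-0.87) and Control 1 (-0.84), with the next lowest at -0.38.

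No difference between HLU and control mice passed the test for any of the 7 tested members. Pmaip1 came nearest, at 0.729-fold of the control level. Trp53, Cdkn1a, Mdm2, Bax, Bcl2 and Bcl2l1 each differed by less than the within-group log2 SD between mice. By limma, no member passed an unadjusted p under 0.05 with a change of at least 1.2-fold, and none passed that p at any fold. Of all features tested, 5.87% passed this rule, 4.76% lower and 1.11% higher in HLU. No member and 0% of all features passed a Benjamini-Hochberg adjusted p under 0.1 by limma, where 1049 features had an unadjusted p under 0.05 at any fold and limma's voom on recovered reads called 1 feature. The adjusted p of the members lay between 0.744 and 0.960. The median feature was lower in HLU by a log2 difference of -0.10, a shift that median-of-ratios rescaling reduced to -0.02.

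**Figure D1:**
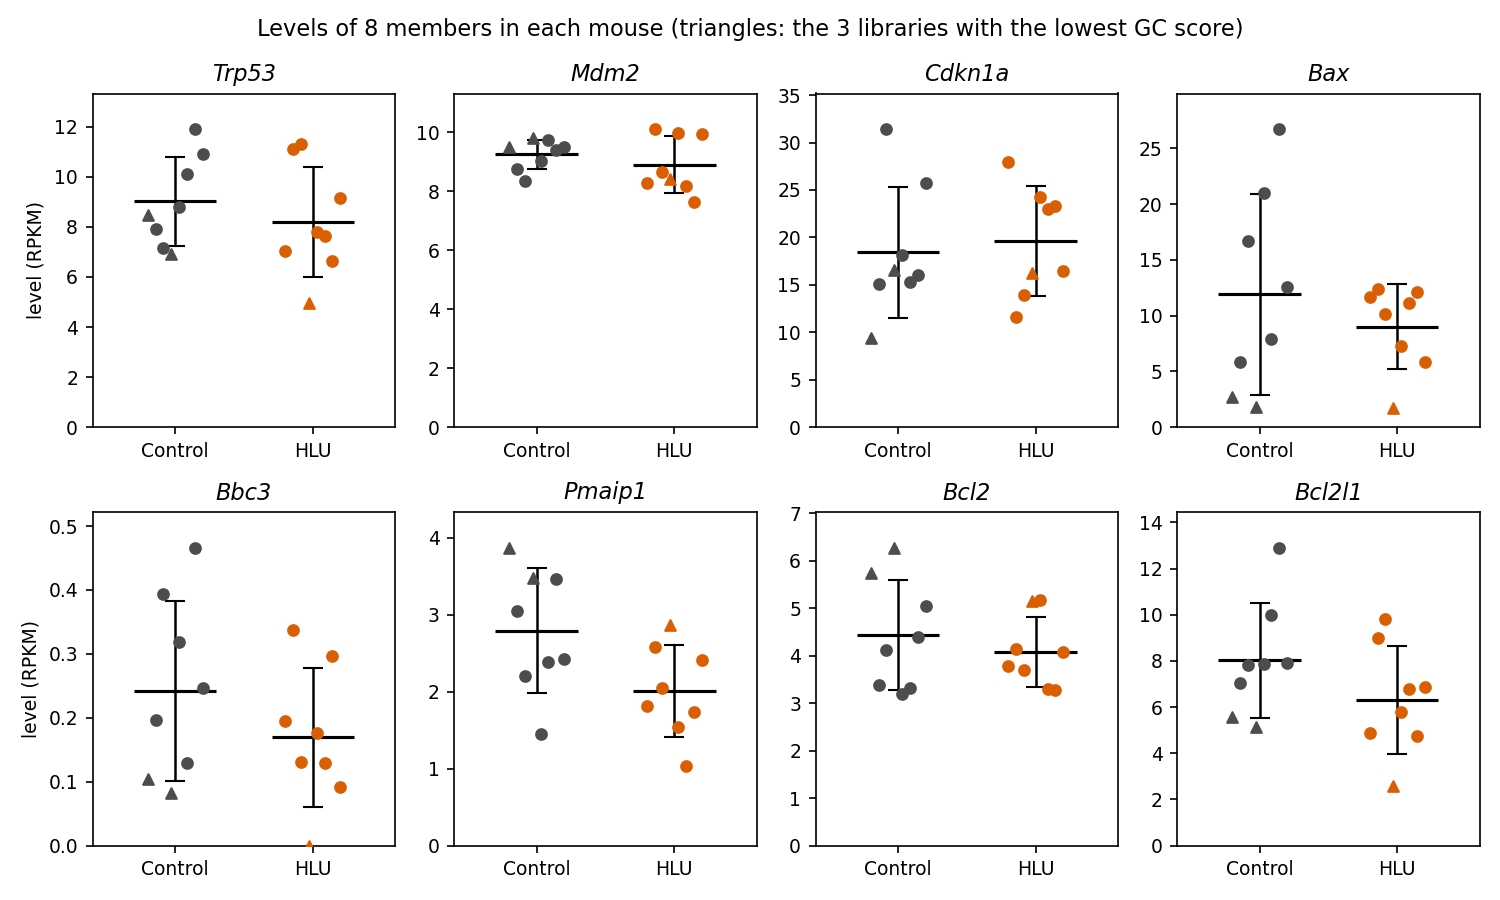
Level in RPKM of 8 members in each mouse (vertical axes, from 0), control mice in grey and HLU mice in orange, with the mean as a bar and the SD as whiskers (n = 8 per group). Triangles mark Control 1, Control 4 and HLU 4, which hold the 3 lowest Bax levels, and in each panel the groups overlap.

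**Figure D2:**
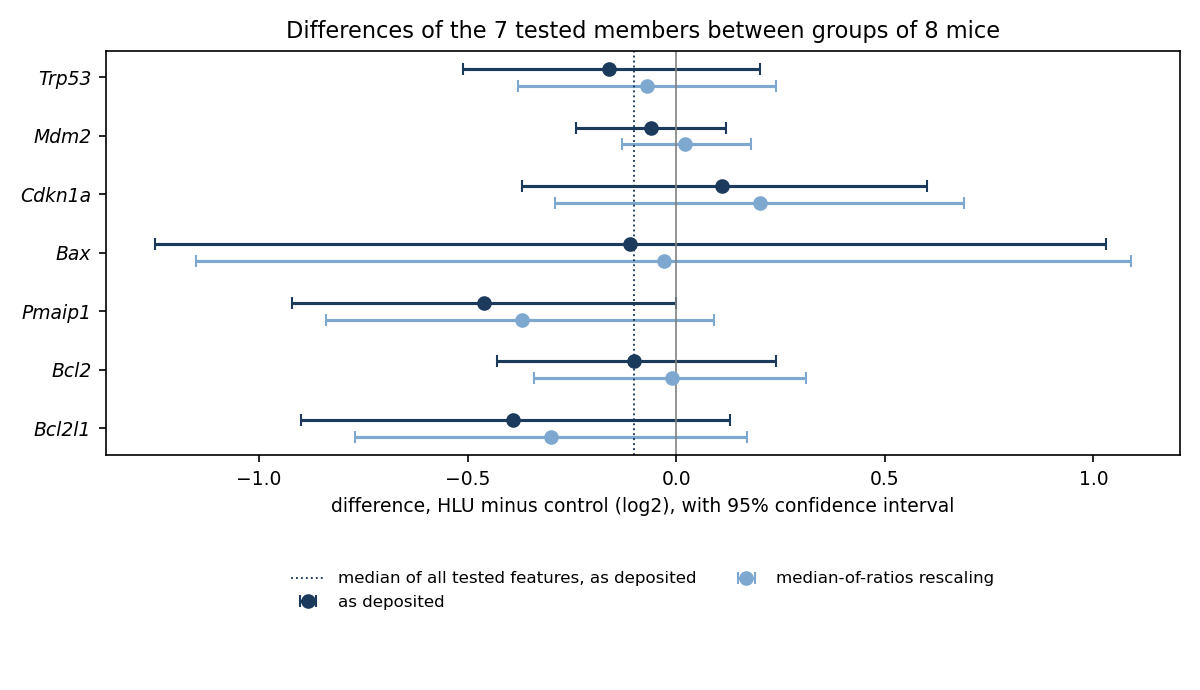
Difference between HLU and control mice on the log2 scale for the 7 tested members (points, limma) with 95% confidence intervals, on the values as deposited and after median-of-ratios rescaling, with the median of all features tested as a dotted line. On deposited values the interval of Pmaip1 ends at 0.00, those of the other 6 cross 0, and that of Mdm2 is the narrowest.

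Trp53 itself was expressed in every mouse. Its level was 6.93 RPKM in the lowest, 8.62 in the median and 11.9 in the highest control mouse, and 4.94, 7.71 and 11.3 RPKM in HLU mice. Of the HLU mice, 2 lay below every control mouse and the rest overlapped with them. The means were 9.01 ± 1.78 RPKM for control and 8.19 ± 2.18 RPKM for HLU (SD, n = 8 each), a log2 difference of -0.16 ± 0.17 (SE, 95% interval -0.51 to 0.20, limma adjusted p = 0.807, two-sided exact permutation p = 0.372). With the erythroid and granulocyte scores as covariates the difference turned to 0.14 ± 0.09 (SE).

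Mdm2, the ubiquitin ligase that removes p53, had a nearly constant level. It ran from 8.35 over a median of 9.44 to 9.79 RPKM in control mice and from 7.63 over 8.53 to 10.1 RPKM in HLU mice. Of the HLU mice, 3 were above every control mouse and 3 were below every control mouse, so the HLU group was the wider one. The log2 difference was -0.06 ± 0.09 (SE, 95% interval -0.24 to 0.12, limma adjusted p = 0.856, exact permutation p = 0.328), and it turned to 0.02 under median-of-ratios rescaling, 0.06 under quantile normalization and 0.03 by voom. Within groups its log2 SD was 0.12, where the 5599 features with a mean within 2-fold of it had a median SD of 0.36 and 1.09% of them a smaller SD. Each library gave it 606 to 1831 reads. The log2 ratio of Mdm2 to Trp53 within a mouse was 0.06 ± 0.26 in control against 0.16 ± 0.34 after HLU (mean ± SD, two-sided exact permutation p = 0.532).

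Cdkn1a, the p21 gene, had the highest mean RPKM of the members, 19.0 over all mice. Control mice ran from 9.38 over a median of 16.3 to 31.4 RPKM and HLU mice from 11.6 over 19.7 to 27.9 RPKM. All HLU mice lay within the range of the controls, with 5 of 8 above the control median. The log2 difference was 0.11 ± 0.23 (SE, 95% interval -0.37 to 0.60, limma adjusted p = 0.904, exact permutation p = 0.647). Without the 3 libraries of lowest GC score it was -0.02.

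Bax, the first of the genes that promote death, varied widely. Its level was 1.80 RPKM in the lowest, 10.2 in the median and 26.7 in the highest control mouse, a 14.9-fold range, and 1.72, 10.6 and 12.4 RPKM in HLU mice. The 3 lowest values belonged to HLU 4 (1.72), Control 4 (1.80) and Control 1 (2.69), the libraries of lowest GC score, and the other 13 mice lay between 5.80 and 26.7 RPKM. The log2 difference was -0.11 ± 0.54 (SE, 95% interval -1.25 to 1.03, limma adjusted p = 0.960, exact permutation p = 0.853), an interval from a 0.419-fold to a 2.04-fold level. Without the 3 libraries it was -0.44 ± 0.33 (SE), which did not pass either. With erythroid and granulocyte scores as covariates it turned to 1.00 ± 0.38 (SE, limma adjusted p = 0.187), the only one of 13 alternatives in which Bax passed the unadjusted rule, and by voom it was 0.03. Bax had 43 to 637 reads per library, and its within-group log2 SD of 1.18 was larger than that of 97.4% of the 5334 features within 2-fold of its mean.

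Bbc3, the Puma gene, was near the limit of detection, with 0 to 21 reads per library. Control mice ran from 0.0826 over a median of 0.221 to 0.466 RPKM and HLU mice from 0 over 0.154 to 0.337 RPKM. No read was recovered in HLU 4, where 3 reads would have come to 0.0635 RPKM. The means were 0.242 ± 0.140 RPKM for control and 0.170 ± 0.109 RPKM for HLU (mean ± SD, exact permutation p = 0.282 on the log2 scale), a difference within the spread at this depth.

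Pmaip1, the Noxa gene, ran from 1.45 over a median of 2.74 to 3.87 RPKM in control and from 1.04 over 1.94 to 2.87 RPKM in HLU mice. Of the 8 HLU mice, 7 were below the control median and 1 was below every control mouse, while the groups overlapped elsewhere. The means were 2.79 ± 0.812 and 2.00 ± 0.595 RPKM (SD, n = 8 each), a log2 difference of -0.46 ± 0.22 (SE, 95% interval -0.92 to 0.00, limma p = 0.0508, adjusted p = 0.744, exact permutation p = 0.0589). The adjusted p lay between 0.189 and 0.910 over 13 alternatives. The unadjusted p from limma fell under 0.05 with a pseudocount of 1 (-0.33), with the replicate number as a block (-0.46), and with blood scores (-0.58) or the GC score (-0.45) as covariates, and did not after median-of-ratios rescaling (-0.37). It rested on 32 to 202 reads per library.

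The genes that hold Bax in check, Bcl2 and Bcl2l1, did not pass either. Bcl2 ran from 3.20 over a median of 4.25 to 6.27 RPKM in control and from 3.27 over 3.93 to 5.18 RPKM in HLU mice, all of them inside the control range. Its log2 difference was -0.10 ± 0.16 (SE, 95% interval -0.43 to 0.24, limma adjusted p = 0.878, exact permutation p = 0.532), the same as that of the median feature, and it was 0.01 under quantile normalization and also without the 3 libraries of lowest GC score.

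Bcl2l1 ran from 5.13 over a median of 7.85 to 12.9 RPKM in control and from 2.60 over 6.27 to 9.81 RPKM in HLU mice. Of the 8 HLU mice, 6 were below the control median and 3 were below every control mouse. Its log2 difference was -0.39 ± 0.24 (SE, 95% interval -0.90 to 0.13, limma adjusted p = 0.747, exact permutation p = 0.157). With erythroid and granulocyte scores as covariates it turned to 0.13 ± 0.11 (SE). The erythroid list moved in the same direction as Bcl2l1: 10 of its 11 genes were listed, none at 0 in all mice, their summed level was 3002 to 8613 RPKM in control and 1652 to 4441 RPKM in HLU mice, and the score differed by -0.59 (exact permutation p = 0.0670). In bulk bone, fewer cells of a type and less RNA per cell cannot be told apart.

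No difference in the balance of these genes within a mouse passed a test. The log2 ratio of Bcl2 to Bax was -0.97 ± 1.65 in control against -0.96 ± 1.16 after HLU (mean ± SD, exact permutation p = 0.991). Bax exceeded Bcl2 in 13 of 16 mice, and the exceptions were Control 1, Control 4 and HLU 4. The log2 ratio of Bcl2l1 to Bax was -0.13 ± 1.08 in control and -0.41 ± 0.68 in HLU mice (exact permutation p = 0.538), and that of Bcl2l1 to Bcl2 was 0.84 ± 0.70 and 0.55 ± 0.75 (exact permutation p = 0.435).

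Ranked by mean RPKM over the 16 mice, Cdkn1a (19.0 ± 6.18, SD) came first, followed by Bax (10.5 ± 6.83), Mdm2 (9.08 ± 0.761), Trp53 (8.60 ± 1.97), Bcl2l1 (7.17 ± 2.50), Bcl2 (4.25 ± 0.957), Pmaip1 (2.40 ± 0.798) and Bbc3 (0.206 ± 0.127). Bax, Mdm2 and Trp53 are not separated by their spread, since Bax was above Mdm2 in 9 of 16 mice and Mdm2 above Trp53 in 11. Bcl2 was above Pmaip1, and Pmaip1 above Bbc3, in all 16. The order between genes rests on the gene lengths that the values were divided by. Those implied by the values exceed the combined exon length of GENCODE M21 2.61-fold for Bcl2l1, 1.93-fold for Mdm2 and 1.78-fold for Trp53, and per M21 length Bcl2l1 came first at 18.7 ± 6.51, ahead of Mdm2 at 17.5 ± 1.47, Cdkn1a at 16.4 ± 5.34 and Trp53 at 15.3 ± 3.50. Differences between mice do not depend on these lengths.

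From mouse to mouse, Trp53 and Bcl2l1 rose and fell together, and Bax did so with Bcl2l1 and, at its low level, with Bbc3. No pair with Cdkn1a passed the rule. Over the 21 pairs of tested members, Pearson's r of log2 levels centred on their group means ran from -0.621 to 0.906, with 10 pairs above 0. A pair was called where limma, fitting every feature on group and 1 member, gave an adjusted p under 0.05 whichever of the pair was the covariate. By this rule 2 pairs passed. By the first of these fits alone, with the member as the covariate, the share of all features that covaried with a member was high, at 31.8% for Bax, 19.9% for Bcl2l1, 19.5% for Cdkn1a, 16.9% for Pmaip1, 15.7% for Trp53, 12.4% for Mdm2 and 2.66% for Bcl2, so covariation with a member is not unusual in itself.

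Trp53 and Bcl2l1 had r = 0.906 (permutation p = 2.00e-05) and Spearman's rho = 0.891 (permutation p = 3.00e-05), with limma adjusted p = 5.01e-04 and 3.48e-04 in the 2 directions. The relation held in control mice (r = 0.771) and in HLU mice (r = 0.975), and r was 0.829 without HLU 3 and HLU 4, which lay farthest from the median of Trp53, and 0.875 without the 3 libraries of lowest GC score. Of all features, 0.454% covaried at least as strongly with Trp53, and 1.59% did so with Bcl2l1. With the erythroid score held fixed the partial r fell to 0.325, and with the erythroid and granulocyte scores as covariates the pair was no longer called. With the GC score held fixed it was 0.911.

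Bax and Bcl2l1 had r = 0.716 (permutation p = 0.00134) and rho = 0.532 (permutation p = 0.0377), with limma adjusted p = 0.00760 and 0.0104. The value was 0.817 in control and 0.707 in HLU mice. It rests in part on the libraries that stood apart: r was 0.456 without Control 4 and HLU 4 and 0.235 without the 3 libraries of lowest GC score, where the pair was not called. Bax and Bcl2 went in opposite directions, with r = -0.621 (permutation p = 0.0209) and rho = -0.429 (permutation p = 0.144). This pair passed in 1 direction only (limma adjusted p = 0.0415 and 0.0784), and without the same 3 libraries r was 0.0381. Cdkn1a and Pmaip1 also went in opposite directions (r = -0.601, permutation p = 0.0190, rho = -0.685, permutation p = 0.00629, limma adjusted p = 0.0642 and 0.0579), with r = -0.541 without Control 1 and Control 3. Bbc3, whose reads are few, followed Bax with r = 0.893 over the 16 mice and 0.779 without the 3 libraries.

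Trp53 and its feedback partner Mdm2 had r = 0.498 (permutation p = 0.0851) and rho = 0.488 (permutation p = 0.0775), and were not called (limma adjusted p = 0.333 and 0.172). Trp53 and its target Cdkn1a had r = -0.309 (permutation p = 0.250) and rho = -0.294 (permutation p = 0.288). Without the 3 libraries of lowest GC score r was -0.696, and with the GC score as a covariate the pair passed in 1 direction (limma adjusted p = 0.0214 and 0.0586). Trp53 and Bax had r = 0.540 (permutation p = 0.0268) and were not called (limma adjusted p = 0.101 and 0.0826), and r was 0.124 without the same 3 libraries. With the GC score as a covariate, a setting chosen after the data had been seen, Trp53 and Mdm2 (limma adjusted p = 0.0279 and 0.0235) and Mdm2 and Bcl2l1 (0.0314 and 0.0449) were called beside Trp53 and Bcl2l1, while Bax and Bcl2l1 were not.

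**Figure D3:**
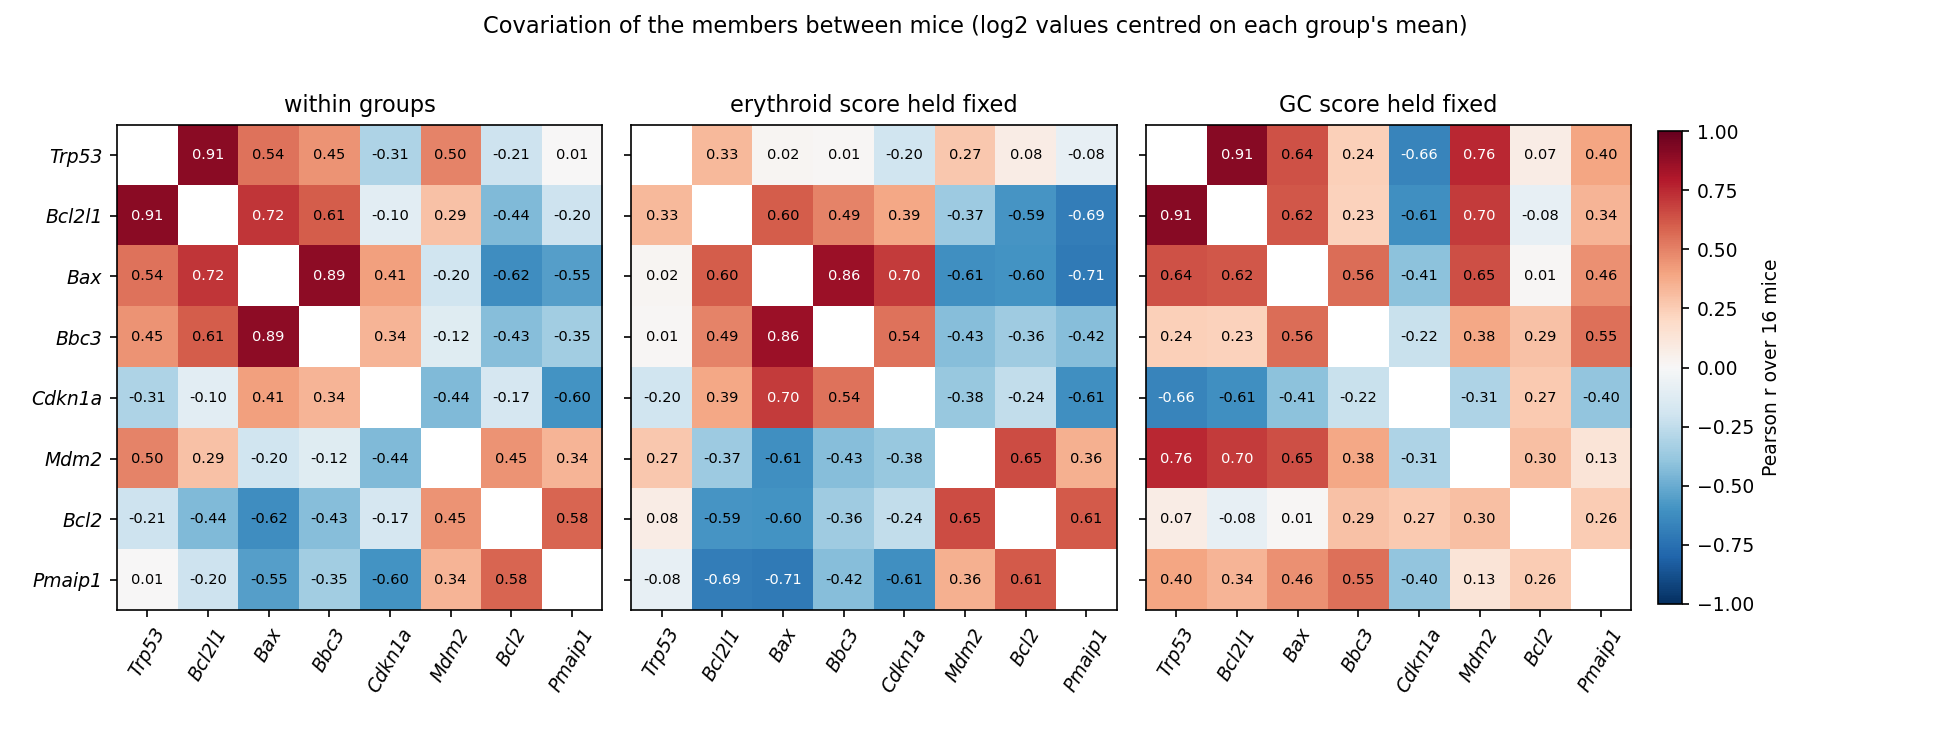
Pearson's r over 16 mice between each pair of 8 members, on log2 levels centred on group means (left), with the erythroid marker score held fixed (middle) and with the GC score held fixed (right), from -1 in blue to 1 in red. Trp53 and Bcl2l1 stand at 0.91 on the left, 0.33 in the middle and 0.91 on the right, and Bax and Bcl2 go from -0.62 on the left to 0.01 on the right.

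The levels of several members followed scores of cell type markers. A score is the mean centred log2 level of a list's markers, and 105 relations were computed between the 7 tested members and 15 measures, of which 25 had a Benjamini-Hochberg adjusted permutation p under 0.05. Bcl2l1 followed the erythroid score with r = 0.936 (permutation p = 1.00e-05, the smallest these permutations can give, adjusted p = 3.50e-04) and rho = 0.971 (permutation p = 1.00e-05). Trp53 followed it with r = 0.920 (permutation p = 1.00e-05, adjusted p = 3.50e-04) and rho = 0.906 (permutation p = 3.00e-05). When the 2 mice farthest from the median score were left out, r was 0.921 for Bcl2l1 and 0.895 for Trp53, and without the 3 libraries of lowest GC score 0.943 and 0.912. Bcl2l1 also followed the megakaryocyte score, with r = 0.882 (permutation adjusted p = 5.25e-04), rho = 0.729 (permutation p = 0.00322) and r = 0.805 when the 2 most extreme scores were left out. For Trp53 the corresponding values were r = 0.820 (permutation adjusted p = 0.00630), rho = 0.703 (permutation p = 0.00536) and r = 0.681. Trp53 passed as well with the scores of proliferating cells (r = 0.712, permutation adjusted p = 0.0342), macrophages (r = 0.704, permutation adjusted p = 0.0342) and granulocytes (r = 0.705, permutation adjusted p = 0.0348). In control and HLU mice, r was 0.523 and 0.795 for proliferating cells, 0.275 and 0.905 for macrophages, and 0.201 and 0.893 for granulocytes. These differences were not tested. Without the 2 most extreme scores r was 0.683, 0.468 and 0.649 in the same order. The relation of Trp53 is thus not particular to the erythroid and megakaryocyte scores. Of 5 megakaryocyte markers 4 were listed, none at 0 in all mice, with a summed level of 941 to 1580.0 RPKM in control and 408 to 1356 RPKM in HLU mice. The part of these cell types in the levels of Trp53 and Bcl2l1 was not tested.

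Cdkn1a took another course. It followed the osteocyte score with r = 0.832 (permutation p = 1.40e-04, adjusted p = 0.00294) and rho = 0.821 (permutation p = 2.10e-04), with 0.822 in control and 0.849 in HLU mice, 0.843 when the 2 most extreme scores were left out and 0.877 without the 3 libraries of lowest GC score. It also rose with the osteoblast score (r = 0.733, permutation adjusted p = 0.0223, rho = 0.800, permutation p = 3.70e-04), and r was 0.643 without the 2 most extreme scores. It ran against the score of proliferating cells (r = -0.671, permutation adjusted p = 0.0339, rho = -0.688, permutation p = 0.00741), with -0.642 without the 2 most extreme scores. It passed as well with the adipocyte score (r = 0.671, permutation adjusted p = 0.0348), the endothelial score (r = 0.637, permutation adjusted p = 0.0342), the granulocyte score (r = -0.641, permutation adjusted p = 0.0342) and the share of reads outside the listed features (r = 0.663, permutation adjusted p = 0.0348), so the relation is not particular to the bone cell scores. All 6 osteocyte markers and all 7 osteoblast markers were listed, none at 0 in all mice. The summed osteoblast markers came to 627 to 1365 RPKM in control and 734 to 1865 RPKM in HLU mice. The osteocyte score was higher in HLU by 0.47 (exact permutation p = 0.0696), a difference that did not pass.

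Mdm2 rose with the score of proliferating cells (r = 0.772, permutation adjusted p = 0.0255, rho = 0.718, permutation p = 0.00658), and r was 0.614 without the 2 most extreme scores. All 7 markers of proliferating cells were listed, none at 0 in all mice, with a summed level of 210.2 to 478 RPKM in control and 106 to 417 RPKM in HLU mice. Mdm2 ran against the share of reads outside the listed features (r = -0.774, permutation adjusted p = 0.0144, rho = -0.753, permutation p = 0.00278), and r was -0.758 without the 2 most extreme shares. It passed as well with the B cell score (r = 0.651, permutation adjusted p = 0.0386). Bcl2 followed the B cell score (r = 0.667, permutation p = 0.00534, adjusted p = 0.0342, rho = 0.682, permutation p = 0.00427), with 0.918 in control and 0.366 in HLU mice, a difference that was not tested, and 0.552 without the 2 most extreme scores. All 8 B cell markers were listed, none at 0 in all mice, with a summed level of 37.3 to 148 RPKM in control and 30.2 to 96.1 RPKM in HLU mice. Pmaip1 rose with the T cell score (r = 0.660, permutation adjusted p = 0.0376, rho = 0.621, permutation p = 0.0157), and r was 0.514 without the 2 most extreme scores. Of 5 T cell markers 4 were listed, none at 0 in all mice, with a summed level of 6.46 to 20.8 RPKM in control and 5.08 to 13.7 RPKM in HLU mice, and the score was lower in HLU by a difference of -0.42 (exact permutation p = 0.112). Pmaip1 ran against the adipocyte score (r = -0.733, permutation adjusted p = 0.0235, rho = -0.721, permutation p = 0.00357), with -0.744 without the 2 most extreme scores, and all 5 adipocyte markers were listed, with a summed level of 408 to 785 RPKM in control and 487 to 836 RPKM in HLU mice. Pmaip1 also ran against the share of reads outside the listed features (r = -0.735, permutation adjusted p = 0.0232). The part of these cells in the levels of Cdkn1a, Mdm2, Bcl2 and Pmaip1 was not tested.

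Bax followed the GC score more closely than any marker score. It also passed with the megakaryocyte score (r = 0.661, permutation adjusted p = 0.0241) and the erythroid score (r = 0.581, permutation adjusted p = 0.0473). Both relations rest largely on the 3 libraries of lowest GC score, without which r was 0.189 and 0.178. The relation with the GC score had r = 0.963 (permutation p = 1.00e-05, adjusted p = 3.50e-04) and rho = 0.924 (permutation p = 1.00e-05), with 0.987 in control and 0.932 in HLU mice, 0.939 when the 2 most extreme scores were left out and 0.894 among the 13 mice outside the low cluster. The longest Bax transcript in GENCODE M21 has 63.5% G and C, where the median of tested genes is 49.1%. Bbc3 (65.2%) had r = 0.844 with the score, Pmaip1 (42.1%) -0.671 (permutation adjusted p = 0.0348) and Bcl2 (46.3%) -0.647 (permutation adjusted p = 0.0512). Bcl2l1 (55.9%) had 0.604 (permutation adjusted p = 0.0573), Cdkn1a (54.4%) 0.521, Trp53 (53.3%) 0.396 and Mdm2 (46.2%) -0.372, and none of these 4 passed. Without the 3 libraries of lowest GC score r was -0.450 for Pmaip1, -0.156 for Bcl2 and -0.0461 for Bcl2l1. With the GC score as a covariate the number of features covarying with Bax went from 5397 to 0. As Bax followed that score with r = 0.963, this fit left little of its variation to test. The number also went to 0 for Pmaip1 (from 2870) and Bcl2 (from 451), and fell from 3306 to 1608 for Cdkn1a. It rose from 2661 to 6201 for Trp53, from 3369 to 6251 for Bcl2l1 and from 2106 to 2840 for Mdm2. Why the libraries differed in GC score was not tested.

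**Figure D4:**
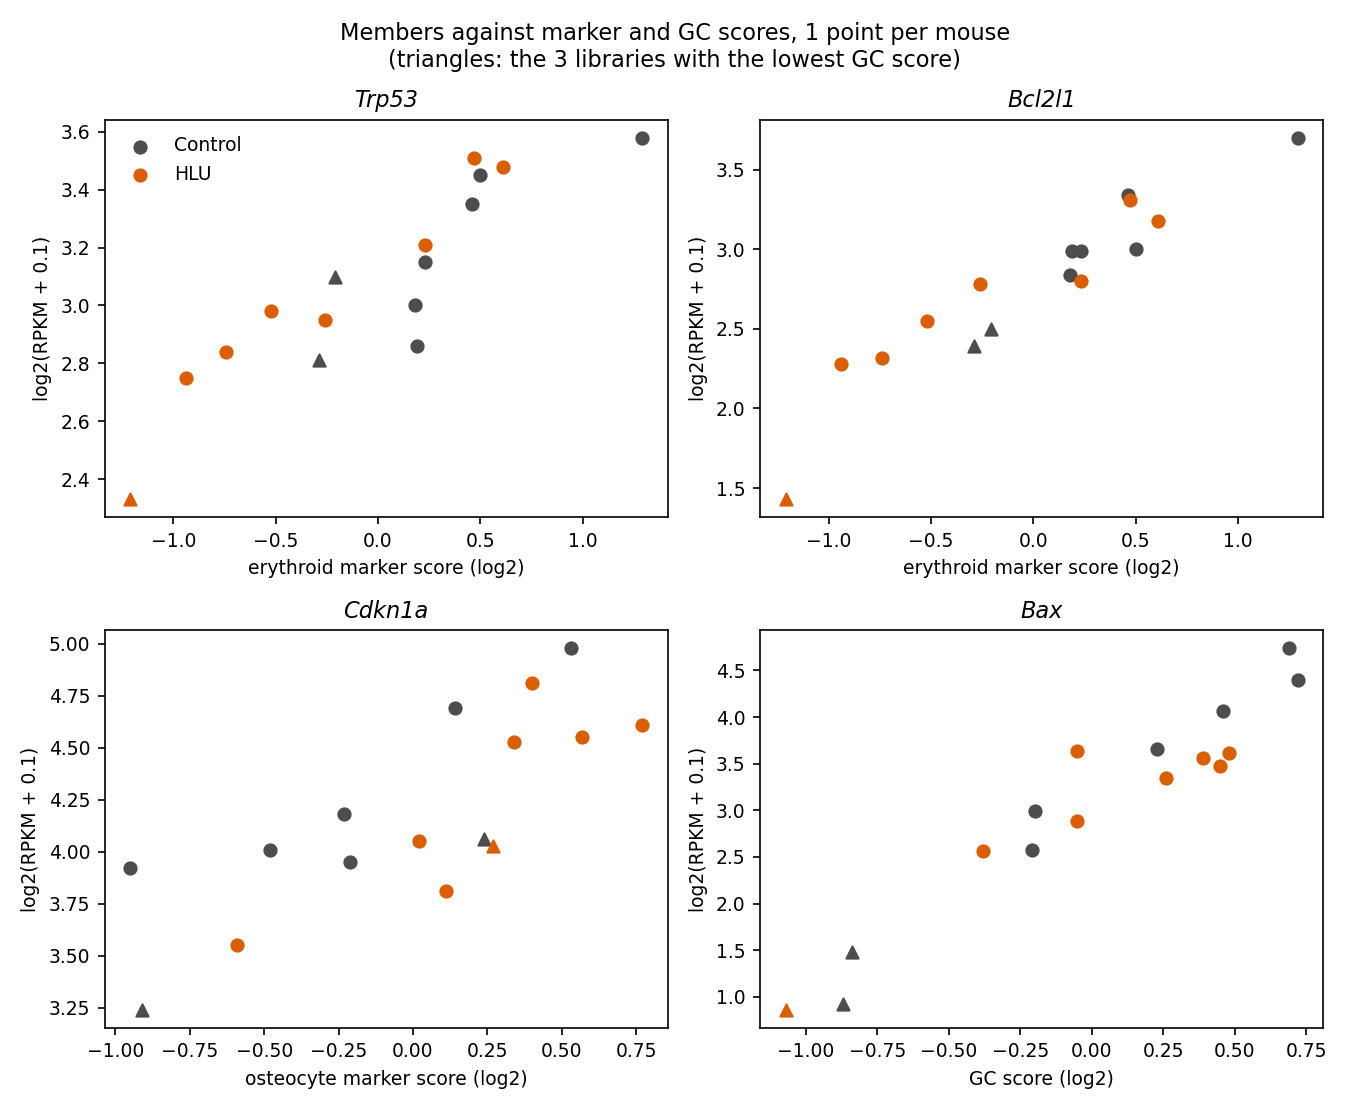
Level of Trp53 and Bcl2l1 against the erythroid score, of Cdkn1a against the osteocyte score and of Bax against the GC score, as log2(RPKM + 0.1) against log2 scores, 1 point per mouse (grey, control; orange, HLU; triangles, the 3 libraries of lowest GC score). Within groups r was 0.920, 0.936, 0.832 and 0.963, and the 3 triangles sit at the lower left of the Bax panel.

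For each tested member the 3 features of unique name with the most similar course over the 16 mice, by r of centred log2 levels, were the following. Trp53 ran with Taf5l (0.970), B4galt3 (0.961) and Ccnf (0.947, cyclin F), and Bcl2l1 with Ubtf (0.978, a factor of ribosomal RNA transcription), Eftud2 (0.977, a splicing factor) and Cd82 (0.975). Cdkn1a ran with Kank1 (0.934), Wnt10b (0.915, a Wnt ligand of bone formation) and Cxcr7 (0.912). The closest feature to Mdm2 was Apaf1 (0.928), which builds the apoptosome, followed by Dennd2c (0.915) and Dnajc6 (0.914). Bax ran with Pagr1b (0.989), H2-Ke2 (0.987) and Rpl8 (0.986, a ribosomal protein), Pmaip1 with Znrf2 (0.875), Gimap9 (0.861) and Gm14098 (0.847), and Bcl2 with Jmjd1c (0.932), Zfp40 (0.932) and Zfp292 (0.915). An r of at least 0.9 was reached by 4.90% of all features with Bax, 1.81% with Bcl2l1, 0.601% with Trp53 and 0% with Pmaip1. The 200 features most like Bax had a median GC content of 57.5% and the 200 least like it 40.9%.

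Few genes of the rest of the pathway passed between HLU and control mice either. Of 82 genes on 5 lists, 74 were listed and 67 tested, of which 0 were called higher and 2 lower (2.99%, against 5.87% of all features). The p53 regulators, 9 of 12 tested, were all below 0 in log2 difference, with a median of -0.26 where that of all features was -0.10, and stayed so after median-of-ratios rescaling (median -0.18 against -0.02). One was called lower. Ep300, an acetyltransferase that coactivates p53, had 9.74 ± 1.34 RPKM in control against 8.14 ± 1.57 RPKM after HLU (mean ± SD), with 7 of 8 HLU mice below the control median, a log2 difference of -0.26 ± 0.12 (SE, limma p = 0.0422, adjusted p = 0.744, exact permutation p = 0.0343). It was called in 5 of 13 alternatives, and was not called after median-of-ratios rescaling (-0.18), with the replicate number as a block (-0.26) or without the 3 libraries of lowest GC score (-0.17). Chek1, the checkpoint kinase, had the lowest value (-0.44, exact permutation p = 0.130) and Trp53bp1 the highest (-0.15, exact permutation p = 0.194). Most of these genes followed the granulocyte score, with an r over the 16 mice of 0.712 for Ep300, 0.801 for Trp53bp1 and 0.874 for Chek1, and from 0.0447 for Mdm4 to 0.944 for Chek2 over the list. The granulocyte score differed between groups by -0.13 (exact permutation p = 0.613) and that of proliferating cells by -0.49 (exact permutation p = 0.0712). With erythroid and granulocyte scores as covariates the median of the list was -0.31, with 5 of 9 called lower. More of all 16973 features were called lower in that fit too, 1706 against 808 in the main fit. Without the 3 libraries of lowest GC score the median of the list was -0.17, with 0 of 9 called, where 1091 of all features were called. The part of these cells in the list's values was not tested.

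Of 25 tested p53 targets other than the members, 13 were below and 12 above 0, with a median of 0.00, and 1 was called lower. Btg2, an antiproliferative gene induced by p53, ran from 44.4 over a median of 59.1 to 76.7 RPKM in control and from 26.2 over 42.2 to 66.5 RPKM in HLU mice. Of the HLU mice, 4 lay below every control mouse. The log2 difference was -0.47 ± 0.19 (SE, limma p = 0.0252, adjusted p = 0.744, exact permutation p = 0.0357), and it was called in 12 of 13 alternatives, the exception being the fit without the 3 libraries of lowest GC score (-0.40, limma unadjusted p = 0.0842, adjusted p = 0.765). Btg2 followed the granulocyte score with r = 0.929 and the erythroid score with r = 0.821, over the 16 mice. Of 11 granulocyte markers 8 were listed, with a summed level of 17651 to 37909 RPKM in control and 12431 to 44663 RPKM in HLU mice, and their part in the level of Btg2 was not tested. Eda2r, a receptor of the tumor necrosis factor family, had the highest value (0.61 ± 0.37 SE, exact permutation p = 0.143, and 0.28 without the 3 libraries of lowest GC score), with 1.25 ± 0.584 RPKM in control and 2.14 ± 1.22 RPKM in HLU mice.

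Of the 9 other BCL2 family genes tested, none was called, and the values ran from -0.33 for Bak1, a sister of Bax (exact permutation p = 0.176), to 0.37 for Bok (p = 0.334), which was at 0.19 without the 3 libraries of lowest GC score. None of the 19 caspases and caspase regulators tested was called, although all 19 were below 0, with a median of -0.17 against -0.10 for all features. After median-of-ratios rescaling 14 of the 19 were below 0, with a median of -0.09. They ran from Birc5 (-0.48, exact permutation p = 0.114), survivin, which also serves cell division, to Cycs (-0.04, p = 0.888), cytochrome c, which was above 0 after rescaling (0.04) and at -0.19 without the 3 libraries. Of the 5 other inhibitors of cyclin-dependent kinases and cyclin G2 none was called. Cdkn1c had the highest value, with 4.30 ± 1.53 RPKM in control and 5.87 ± 1.71 RPKM in HLU mice and 7 of 8 HLU mice above the control median (log2 difference 0.48 ± 0.23 SE, limma p = 0.0531, exact permutation p = 0.0667). It passed the unadjusted rule in 4 of 13 alternatives, among them median-of-ratios rescaling (0.56). Cdkn2b had the lowest (-0.29, exact permutation p = 0.448).

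**Figure D5:**
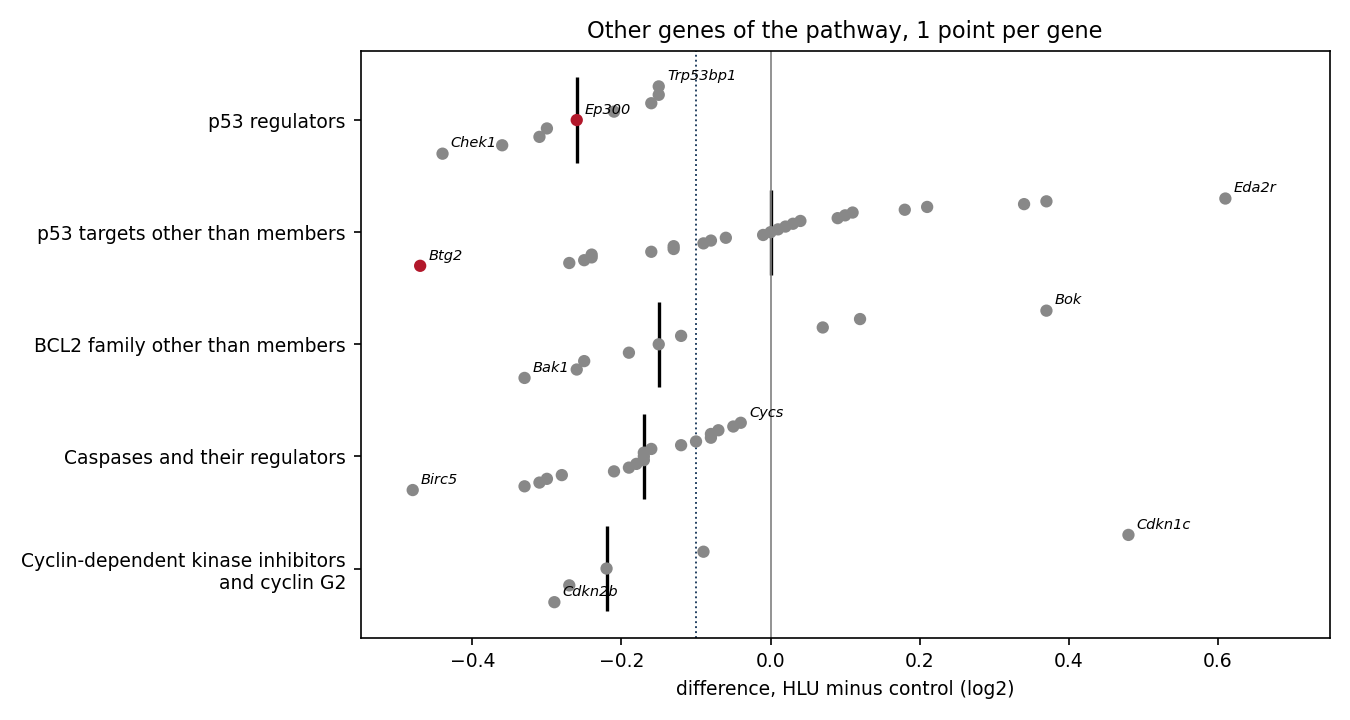
Difference between HLU and control mice on the log2 scale for 67 genes on 5 pathway lists, 1 point per gene, with the 2 called genes (Ep300 and Btg2) in red, a bar at each list's median and a dotted line at the median of all features (-0.10). All p53 regulators and caspase genes lie left of 0, and the p53 targets lie on both sides of it.

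The same 67 genes showed which of them went with the members from mouse to mouse. Mdm2 covaried with 22 of the 67 (32.8%, against 12.4% of all features), all positively, among them 9 of 19 caspase genes such as Apaf1 (r = 0.928, limma adjusted p = 0.0172) and Casp2 (r = 0.842, adjusted p = 0.0178), and 5 of 9 p53 regulators. Of all features that covaried with Mdm2, most did so positively as well, 1941 of 2106. Cdkn1a covaried with 19 (28.4%, against 19.5%), 6 positively and 13 negatively. The negative ones included 6 of 9 p53 regulators, such as Usp7, which deubiquitinates Mdm2 and p53 (r = -0.795, limma adjusted p = 0.0141), and the positive ones Bcl2l2, which encodes Bcl-w (r = 0.859, adjusted p = 0.0125), and the p53 target Phlda3 (r = 0.785, adjusted p = 0.0125).

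Trp53 covaried with 16 of the 67 (23.9%, against 15.7%), 13 positively, with Xpc, a DNA repair gene, at the highest r (0.850, limma adjusted p = 0.00652). Bcl2l1 covaried with 15 (22.4%, against 19.9%), led by the mitochondrial protease gene Htra2 (r = 0.915, limma adjusted p = 1.28e-04). Bax covaried with 22 (32.8%, close to the 31.8% of all features), 12 positively and 10 negatively, such as Dcxr (r = 0.904, limma adjusted p = 2.89e-05) and Rrm2b (r = -0.912, adjusted p = 9.82e-05). With the GC score, Dcxr had an r of 0.904 and Rrm2b of -0.845. Pmaip1 covaried with 15 (22.4%, against 16.9%) and Bcl2 with 3 (4.48%, against 2.66%), among them Xiap, an inhibitor of caspases (r = 0.816, limma adjusted p = 0.0335). These counts depended on the fit. With erythroid and granulocyte scores as covariates 4 of the 67 covaried with Mdm2, 27 with Bax and 3 with Bcl2. The count was 0 for each of Trp53, Cdkn1a, Pmaip1 and Bcl2l1. The share of all features in that fit was 2.17% for Mdm2, 29.8% for Bax and 3.48% for Bcl2. It was 0% for Trp53, Cdkn1a and Pmaip1, and 0.0236% for Bcl2l1. After median-of-ratios rescaling Mdm2 covaried with 21 of the 67 positively and 6 negatively, and Trp53 with 8 positively and 6 negatively. The share of all features that covaried with Mdm2 was also higher after this rescaling, at 27.6% against 12.4% in the main fit. Of these 4680 features 2473 did so positively. With Trp53 2545 of all features covaried after rescaling, 1389 of them positively, against 2661 in the main fit. Without the 3 libraries of lowest GC score the counts were 19 for Mdm2, 15 for Trp53, 9 for Cdkn1a, 6 for Bcl2l1, 1 for Bax and 0 for Bcl2 and Pmaip1. The shares of all features were then 12.4% for Mdm2, 10.2% for Trp53, 9.47% for Cdkn1a, 6.45% for Bcl2l1 and 6.69% for Bax. They were 0% for Bcl2 and Pmaip1. With the GC score as a covariate 36 of the 67 covaried with Trp53, 35 with Bcl2l1, 21 with Mdm2 and 10 with Cdkn1a. The count was 0 for each of Bax, Pmaip1 and Bcl2. Shares of all features in that fit were 36.5% for Trp53, 36.8% for Bcl2l1, 16.7% for Mdm2 and 9.47% for Cdkn1a, and 0% for Bax, Pmaip1 and Bcl2. Apaf1 is a nearest feature of Mdm2 by the rule, and the other genes of these 2 paragraphs were picked after their values had been seen.

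Exons of Bax, Bcl2 and Cdkn1a overlap those of a neighbouring gene in GENCODE M21 (Gm45808, D630008O14Rik and AC167363.2). Bax lies on the same strand as its neighbour, and the library kit does not mark strand, so for each of the 3 the reads from such a stretch cannot be told apart.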

How the data were processed

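RNA of 16 mice was measured by RNAseq, 1 library per mouse. Per the paper and the labels, the authors made TruSeq v2 libraries, ran 8 per lane on a HiSeq, aligned reads with TopHat2 (mm9 and DESeq2 are also in the submitters' processing notes) and deposited RPKM values. The counting tool and annotation are not given in the sources used here. RPKM corrects for gene length and library size and not for composition or GC content. Which libraries shared a lane is not known, so lanes could not be compared.

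Groups came from the sample titles. The 9 genes, the pathway lists and the marker lists were chosen with earlier results of these data known. A mean of 0.5 RPKM or more over all mice was required. R 4.3.3 and its package limma 3.58.1 then fitted log2(RPKM + 0.1), with a variance trend and Benjamini-Hochberg adjustment over all 16973. A fold change on this scale understates that of low genes. Two-sided exact permutation tests covered all 12870 splits of the mice (Python 3.11.15, numpy 2.4.6, scipy 1.17.1), with 1.55e-04 as the smallest p. Correlations used 100000 permutations within groups. Genes outside the 9 were named if called, if highest or lowest of their list, or among the 3 features most like a member, and those named for covariation or a list's range of r were picked after their values had been seen. Whole reads were recovered for 100% of tested features within 0.03 reads, from the steps of the RPKM values, as was checked on simulated data (3000 of 3000 features), and limma was also tested on simulated data. Limits set by reads cover counting error only. The confidence intervals come from the limma fits and reflect the spread between mice. GC content was that of the longest GENCODE M21 transcript, found for 14767 of 15760 tested features of unique symbol.

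Alternatives were the pseudocount, the filter, scaling, covariates, the replicate number, the variance trend, limma's voom on recovered reads and left-out libraries. No 2 libraries held identical values. The labels do not say whether the mice came from separate cages or litters, and p-values measure the spread between mice.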

Additional observations from a re-analysis of the deposited data

How the results depend on the processing

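Over 13 alternatives, the count of members called was 0 in the main comparison and in 9 of them, 1 (Pmaip1) with a pseudocount of 1 (-0.33), with the replicate block (-0.46) and with the GC score as a covariate (-0.45), and 2 with the erythroid and granulocyte scores as covariates, where Pmaip1 was at -0.58 and Bax turned to 1.00. In that fit Trp53 turned to 0.14 and Bcl2l1 to 0.13. Mdm2 turned to 0.02 under median-of-ratios rescaling, 0.06 under quantile normalization and 0.03 by voom, where Bax stood at 0.03. Bcl2 was at 0.01 under quantile normalization and without the 3 libraries with the lowest GC score, where Cdkn1a was at -0.02 and Bax at -0.44. The cause was not tested.

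Of all features, 996 passed the unadjusted rule, 2998 with blood scores as covariates and 1643 with the GC score. Of these 18.9% were higher in HLU, 48.4% after median-of-ratios rescaling, 55.8% after quantile normalization, 49.0% by voom, 43.1% with blood scores and 27.2% with no filter. The adjusted rule called 1 feature with no filter, 1 with no trend in the variance, 1 by voom and 19 with blood scores, and none was called in the other fits. Covarying pairs numbered 2, and 4 under median-of-ratios rescaling, 6 under quantile normalization, 5 on log2 CPM of recovered reads, 4 without the 2 smallest libraries, 1 without the 3 libraries with the lowest GC score and 0 with blood scores as covariates. Trp53 and Bcl2l1 were called in each of these fits except that with blood scores.

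What same-numbered mice of the 2 groups share beyond the number is not known. The correlation of their deviations over all features ran from -0.166 to 0.510, with 3 of 8 over 0.1, and 1 of 8 control mice was most like its own number. The replicate block moved the count of called features from 996 to 1039. Both settings with the GC score were chosen after seeing the data. Few reads limit Bbc3 most, at 0 to 21 per library, while Pmaip1 had 32 to 202 and Bax 43 to 637. The libraries of lowest Bax level were not the smallest. They held 19708590 reads (Control 1), 16740905 (Control 4) and 16352006 (HLU 4), against 7067512 in Control 2 and 7838277 in HLU 5.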
